A study of Drosophila melanogaster with 18 samples.

Results

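In testes of *modulo* mutant flies, the most abundant long noncoding RNAs (lncRNAs) did not move as a block. Of 100 such transcripts, 23 rose and 40 fell relative to control, beside 14.5% and 17.8% of all genes tested. All 18 that are encoded on the X chromosome had a higher mean level in the mutant, and 11 of these rose and 0 fell. Of the 82 encoded elsewhere, 12 rose and 40 fell, and the 8 largest falls were all among these. The 100 were selected on control abundance: among the 1934 genes of 17575 in the files whose FlyBase symbol marks them as lncRNAs (*roX1*, *roX2* and the snoRNA host genes of the Uhg series left aside), they had the highest mean CPM (a gene's count scaled to the total count of the replicate) over the 3 control replicates. Control testes are titled wild type in the labels, but their genotype is given as mod07570/+, which is used here and keeps a wild-type copy of the gene, and *modulo* mutant testes were modL8/mod07570, so both genotypes carry the mod07570 allele. Testes came from adult males aged 1 to 3 days reared at 25 °C, with 3 biological replicates per genotype. The strain of each X chromosome and of the autosomes other than the *modulo* alleles is not given in the sources used here, though for its qRT-PCR the study calls control males of this genotype siblings of the mutant males. An effect of strain and of the *modulo* genotype cannot be told apart. Whole testes were taken, and in bulk RNA fewer cells of a type and less RNA per cell cannot be told apart.

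A lncRNA is a transcript longer than a typical small RNA that holds no recognised protein-coding frame. The fly testis is known for the number of lncRNA genes it transcribes, many of them in spermatocytes, the germ cells that grow and transcribe heavily before meiosis. Individual lncRNAs act in different ways, for example as scaffolds of nuclear bodies or by recruiting chromatin factors, but for most testis lncRNAs, which are known only by a CR number, no role is established. Modulo, the protein of the gene mutated here, binds nucleic acids, resides in the nucleolus and is related to vertebrate Nucleolin. RNA was depleted of ribosomal RNA rather than selected for poly(A) tails, so transcripts with and without a tail could be counted.

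The labels were first checked with *modulo* itself (*mod*, chromosome 3R). It had 21.7, 20.7 and 22.2 normalized CPM in control and 2.06, 1.91 and 1.28 in mutant. The mutant values lay far below the control values in every replicate. Replicates held 87119206 to 94915990 counts in control and 90898270 to 107435749 in mutant, and the lowest count of any of the 100 lncRNAs in any replicate was 355, for *CR45981* in the mutant. The median coefficient of variation of the 100 was 9.69% in control and 10.9% in mutant. Here and below, normalized CPM are scaled by edgeR's TMM factors, and fold changes and adjusted p-values come from edgeR's quasi-likelihood test over all 14059 genes that passed a filter of 10 counts in 3 samples. All 100 lncRNAs passed this filter. With 3 replicates against 3, an exact two-sided permutation test of a single gene cannot give a p below 0.1.

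The levels that chose the lncRNAs spanned a 74.7-fold range in control, from a mean of 1748 CPM for *CR9284* to 23.4 CPM for *CR44376*, the last one inside the list. The first one outside, *CR46108*, had 23.2 CPM in control. The 3 most abundant held 29.3% of the summed control CPM of the 100 and the first 10 held 55.8%. Of these 10, 7 lie on the X chromosome, and the 18 X-linked lncRNAs together held 52.0% of the sum. Read counts grow with transcript length, so the order per kilobase of exon differs. On that scale *CR9284* (1929 normalized CPM per kilobase in control) and *CR34335* (1866) were close, while *Hsromega*, rank 8 by counts with 21710 bases of annotated exon, had 23.1. The summed level of the 100 was 13585, 14914 and 15452 normalized CPM in control and 16974, 19054 and 20051 in mutant. Every mutant replicate had a larger sum than every control replicate. The X-linked lncRNAs went from 6875, 7874 and 8112 in control to 9835, 11247 and 12525 in mutant, without overlap. The other 82 summed to 6710, 7040 and 7340 in control and 7139, 7807 and 7526 in mutant. These ranges overlap, while within each pair of same-numbered replicates the mutant sum was the higher one.

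Counted 1 gene at a time, 23 of the 100 lncRNAs rose and 40 fell at an adjusted p under 0.05. Of all genes tested, 14.5% were called higher and 17.8% lower. A change of at least 2-fold was called for 5 lncRNAs in the upward direction, against 3.45% of all genes, and for 18 in the downward direction, against 9.02%. The 3 mutant values lay wholly above the 3 control values for 35 lncRNAs, against 23.2% of all genes, and wholly below for 42, against 24.1%. The median log2 fold change of the 100 was -0.05, beside 0.02 for all genes tested and -0.44 for the other 1192 lncRNA genes tested, of which 144 were called higher and 522 lower. Control values entered both the choice of the 100 and the fold changes. When the 100 with the highest CPM in the mutant were taken instead, of which 81 were the same genes, 29 were called higher and 21 lower, with a median of 0.17. With the 100 highest over all 6 samples, the counts were 23 and 31. The number called higher also depended on single libraries: it was 10 without control replicate 1, 11 without control replicate 3 and 9 without mutant replicate 2. In these fits the number called higher over all genes dropped too, from 2044 with all libraries to 1217, 1058 and 919. Of the 100 lncRNAs, the number called lower stayed between 30 and 40 with each replicate left out. With the replicate number as a block, 34 were called higher and 46 lower, and over all genes 3122 and 3287.

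**Figure D1:**
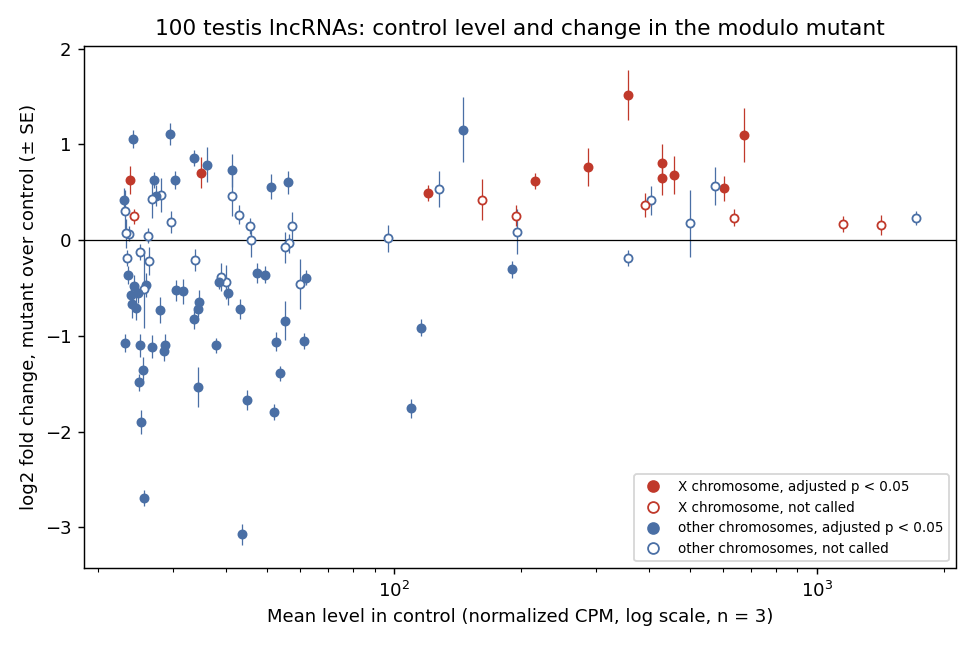
Each point is 1 of the 100 lncRNAs, with its mean normalized CPM in control on a log scale (n = 3) and its log2 fold change in the *modulo* mutant with the standard error. Filled points passed an adjusted p of 0.05, and red points are X-linked. All 18 red points lie above 0, and the lowest point, at -3.07, is *CR44412*.

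The choice did not use the chromosome. On the X chromosome, all 18 lncRNAs had a positive log2 fold change, from 0.16 to 1.52 with a median of 0.58. For 16 of the 18 the mutant values lay wholly above the control values. Of all 2131 X-linked genes tested, 693 lay wholly above and 322 wholly below. For the lncRNAs on the other chromosomes the median was -0.36, with 30 positive and 52 negative values. By arm, 2 rose and 14 fell of 27 on 2L, 2 rose and 9 fell of 14 on 2R, 4 rose and 7 fell of 19 on 3L, and 4 rose and 10 fell of 21 on 3R. The medians were -0.46 on 2L, -0.53 on 2R, 0.05 on 3L and -0.38 on 3R. On 3L the median was thus not below 0, though more lncRNAs were called lower than higher. The single lncRNA on chromosome 4, at 0.27, was not called. Over all genes tested, the X chromosome also had more calls up than down, 438 and 230 of 2131 with a median of 0.12, while chromosomes 2, 3 and 4 had 1579 and 2264 of 11811. Less abundant lncRNAs of the X chromosome were split differently, with 21 called higher and 29 lower of 106 tested and a median of -0.03. The X-linked and the other lncRNAs are set side by side as a description, and their difference was not tested. All 18 X-linked values stayed positive under TMM, RLE, total-count and upper-quartile scaling and with each replicate left out. Their number called higher was 3 without control replicate 1, 7 without control replicate 2, 4 without control replicate 3 and 3 without mutant replicate 2, against 11 with all libraries. With all libraries it was 14 by DESeq2 and 15 with the replicate number as a block. The pattern held for this choice of lncRNAs and not for each choice tried. With the 100 highest per kilobase of exon in control, 19 were called higher and 39 lower, and 17 of their 18 X-linked lncRNAs had a positive value. The exception, *CR41352* (rank 199 by control CPM), fell from 10, 15.4 and 13.9 normalized CPM in control to 0.228, 0.111 and 0.126 in mutant, or -6.37 on the log2 scale (adjusted p = 3.63e-05), and was named after its value was seen.

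**Figure D2:**
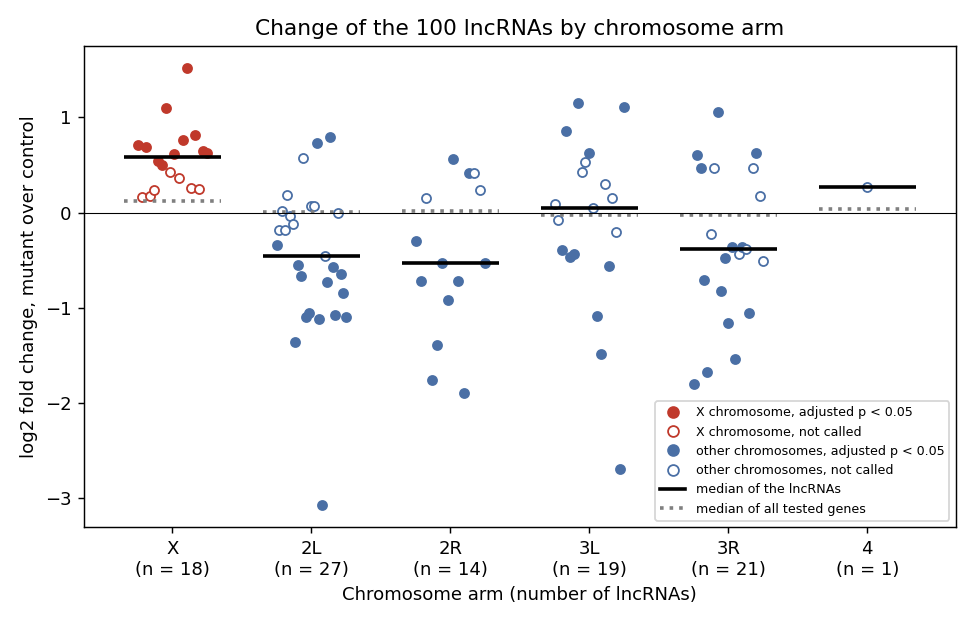
Log2 fold change of each of the 100 lncRNAs by chromosome arm. Black bars are medians of these lncRNAs and dotted grey bars medians of all tested genes of the same arm. On the X chromosome every lncRNA is above 0 and the median is 0.58, while the medians are -0.46 on 2L, -0.53 on 2R, 0.05 on 3L and -0.38 on 3R, and the single value on chromosome 4 is 0.27.

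Abundance and chromosome went together in these lncRNAs. Of the 25 with the highest control levels, 15 were X-linked, with 9 called higher and 0 lower. The other 10 of the first 25 had 1 called higher, *CR43684*, and 2 lower, with a median of 0.20. In each of the next 3 blocks of 25, more were called lower than higher: 13 and 3, then 12 and 7, then 13 and 3. Across the 82 lncRNAs that are not X-linked, log2 fold change and control CPM had a Spearman correlation of 0.13, across the 18 X-linked ones of -0.14, and across all 100 of 0.30. These lncRNAs share the same 6 libraries and the control values enter both measures.

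Among the X-linked lncRNAs, *CR43264* (chromosome X from 5831898 to 5832215, minus strand, a single exon) had the largest rise. Its normalized CPM were 295, 394 and 384 in control and 693, 967 and 1414 in mutant. The mutant replicates differed widely among themselves, and the lowest of them lay above every control. The difference was 1.52 on the log2 scale (standard error 0.26, adjusted p = 0.00512). It lies within the span of *CG15765* on the other strand, and *CG15765* went the other way, with 0.908, 0.784 and 0.676 normalized CPM in control and 0.0380, 0.0304 and 0.0457 in mutant (adjusted p = 7.65e-05). *CR34335* (rank 4 in control, within *DIP-alpha*, the gene of a cell-surface protein of the immunoglobulin family, on the same strand) had 546, 776 and 699 in control and 901, 1437 and 1977 in mutant. It was 1.09 higher on the log2 scale (standard error 0.28, adjusted p = 0.0249), and this call was lost without any 1 of the control replicates or mutant replicate 2, with adjusted p-values from 0.00204 to 0.0822 over the replicates left out. *DIP-alpha* itself was low, at 1.75 ± 0.276 (SD, n = 3) in control and 1.23 ± 0.314 in mutant, and was not called.

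The remaining X-linked lncRNAs are described for their chromosome, and those outside the first 10 were picked for it after their values were seen. The tightest rises were those of *CR42657*, with 201, 214 and 232 in control and 333, 332 and 326 in mutant, and of *CR33218*, with 110, 126 and 126 in control and 165, 172 and 172 in mutant. For both, the gap between genotypes exceeded the spread within either one. *CR42657* had a log2 fold change of 0.62 (adjusted p = 0.00164), and *CR33218*, which lies within *Raf*, the gene of a MAP kinase kinase kinase, of 0.49 (adjusted p = 0.00483). *CR32690*, 3 bases from *Ypel*, had 574, 552 and 682 in control and 769, 846 and 1015 in mutant, with a log2 fold change of 0.54 (adjusted p = 0.022). Its call was lost without control replicate 1 or 2 or mutant replicate 2, where adjusted p reached up to 0.0765. *Ypel* itself, named for the yippee family, had a log2 fold change of 0.16 and was not called. *CR32582* and *CR44834*, both under 40 CPM in control, rose by 0.71 and 0.63 on the log2 scale.

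Several X-linked lncRNAs lie next to each other. Differences between neighbours were not tested. Within *Ten-a*, the gene of a teneurin that helps match synaptic partners, *CR32657* and *CR32658* lie 3569 bases apart on the same strand. *CR32657* had 399, 467 and 509 in control and 555, 710 and 944 in mutant (log2 fold change 0.68, adjusted p = 0.0376). *CR32658* had 1105, 1131 and 1232 in control and 1361, 1237 and 1305 in mutant, and its difference of 0.17 on the log2 scale (standard error 0.09) was not called (adjusted p = 0.174). *Ten-a*, with 3.75 ± 0.499 (SD, n = 3) in control and 3.54 ± 0.512 in mutant, was not called. The call of *CR32657* was lost with any 1 replicate left out other than mutant replicate 1 (adjusted p from 0.00554 to 0.117) and with upper-quartile scaling (0.053). *CR32661* and *CR43157*, 447 bases apart, had log2 fold changes of 0.23 (adjusted p = 0.084) and 0.76 (adjusted p = 0.0241). In a group of 3, *CR43279* and *CR43835* rose by 0.81 and 0.64 on the log2 scale, and *CR43278* on the opposite strand had 0.25 (adjusted p = 0.123). *CR43279* had 343, 503 and 448 in control and 583, 868 and 814 in mutant, and its call was lost without control replicate 1 or 3 or mutant replicate 2 (adjusted p up to 0.0677). *CR43835* had close values, at 345, 500 and 443 in control and 558, 794 and 662 in mutant. Both had fractional counts, from reads divided over several places, in all 18 lane files. Their rises may therefore not be separate, and how far they share reads was not tested.

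**Figure D3:**
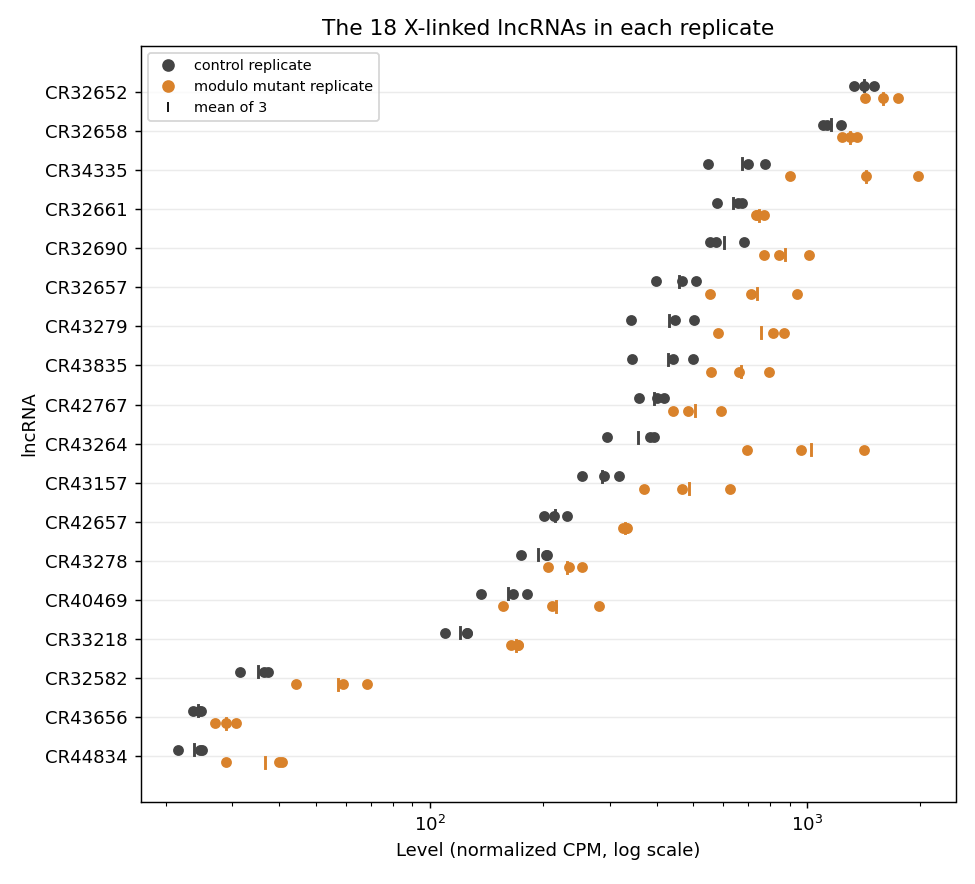
Normalized CPM on a log scale of the 18 X-linked lncRNAs in each control (grey) and *modulo* mutant (orange) replicate, ordered by control level, with the mean of 3 as a vertical tick. The mutant points lie to the right of the control points for 16 of the 18, and overlap them for *CR32652* and *CR40469*.

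Reads that aligned to several places were divided among them by the authors, which leaves fractional counts. Of the 100 lncRNAs, 78 had none in any lane. In 16 or more of the 18 lane files a fraction was seen for 7, namely *CR34335*, *Hsromega*, *CR43279*, *CR43835*, *CR43157*, *CR40469* and *CR43130*, and 5 of these are X-linked. Their levels are uncertain to the extent that copies share reads. Among the 10 X-linked lncRNAs with no fractional count, 6 were called higher and 0 lower, with a median log2 fold change of 0.52.

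The rest of the first 10 in control changed little or variably. *CR9284*, the most abundant (chromosome 2R from 21803402 to 21804338, plus strand), had 1660, 1743 and 1743 in control and 2034, 2036 and 1977 in mutant. The genotypes did not overlap, but the difference, 0.23 on the log2 scale (standard error 0.08), missed the threshold (adjusted p = 0.0529). DESeq2 called *CR9284* higher (adjusted p = 0.000702). *CR32652* had 1335, 1419 and 1507 in control and 1750, 1591 and 1423 in mutant, which overlap (log2 fold change 0.16, adjusted p = 0.283). *CR32661* had 579, 673 and 657 in control and 740, 769 and 735 in mutant, again without overlap, and was called higher by DESeq2 (adjusted p = 0.0334). *CR43803*, within *beat-Ib* on the other strand, had 473, 620 and 633 in control and 644, 1051 and 864 in mutant. Its log2 fold change of 0.57 missed the threshold (adjusted p = 0.0675). It passed with DESeq2 (adjusted p = 0.0206) and with the replicate number as a block (adjusted p = 0.0038).

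Among the lncRNAs not on the X chromosome, the largest rises were those of *CR43684*, *CR45982*, *CR44178*, *CR43306* and *CR44601*. *CR45982* (chromosome 3L from 2628041 to 2629018, plus strand) had 27.4, 33.1 and 28.1 in control and 57.2, 63.9 and 69.6 in mutant, or 1.10 higher on the log2 scale (standard error 0.11, adjusted p = 0.000591). *CR44178* (chromosome 3R from 21088792 to 21095744) had 22.8, 24.5 and 25.1 in control and 46.6, 49.5 and 54.8 in mutant, or 1.06 on the log2 scale (standard error 0.09, adjusted p = 0.00028). These were 2.15-fold and 2.08-fold higher, and the genotypes did not overlap. *CR44178* lies within *RhoGAP93B*, the gene of a GTPase-activating protein, on the other strand, and *RhoGAP93B* fell from 20.1 ± 2.47 to 13.2 ± 2.58 (SD, n = 3, adjusted p = 0.0281). *CR43306* rose from 33.7 ± 1.78 to 61.1 ± 3.59 (SD, n = 3). Its neighbour *CG5103*, 342 bases away, had 293 ± 20.9 in control and 319 ± 11.1 in mutant and was not called. *CR43684*, within *Sytbeta*, had widely spread values of 144, 81.5 and 212 in control and 250, 360 and 364 in mutant (log2 fold change 1.15, adjusted p = 0.038). Its call was lost without control replicate 1 or 2 or mutant replicate 2 or 3, and with scaling to total counts (0.0544). The adjusted p ran from 0.0209 to 0.12 over the replicates left out. *CR44601* rose from 36.2 ± 3.4 to 62.5 ± 14.8 (SD, n = 3), a call lost without control replicate 1 or 3 or mutant replicate 2 (adjusted p up to 0.0571).

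The largest falls were larger in size than the largest rises on the log2 scale. *CR44412* (chromosome 2L from 17606465 to 17607260, minus strand, 1 exon) had 42.6, 48.7 and 39.8 in control and 5.22, 5.41 and 4.95 in mutant. This level was 8.42-fold lower, or -3.07 on the log2 scale (standard error 0.11, adjusted p = 1.86e-05). Its nearest protein-coding gene, *Sytalpha* of the synaptotagmin family, lies 2078 bases away on the other strand and fell by 0.76 on the log2 scale, from a low level of 1.63 ± 0.225 (SD, n = 3). *CR45981* (chromosome 3L from 2621721 to 2622629, minus strand, 1 exon) had 24.8, 26.4 and 25.7 in control and 3.89, 3.95 and 4.05 in mutant, 6.47-fold lower (log2 fold change -2.69, standard error 0.08, adjusted p = 1.42e-05). In both lncRNAs every mutant value lay far below every control value.

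*CR45981* and *CR45982*, which fell and rose, lie 5412 bases apart on opposite strands within *Pxn*, the gene of peroxidasin, an enzyme of the extracellular matrix. *Pxn*, on the strand of *CR45981*, had 12.8, 6.14 and 9.62 in control and 18.4, 8.9 and 8.82 in mutant, which overlap (log2 fold change 0.34, adjusted p = 0.522). Thus 2 single-exon lncRNAs within the same gene changed in opposite directions while the gene's own counts were not called.

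The other 6 of the largest falls were each called with every replicate left out and under every scaling tried. *CR44279* had 24.6, 29.2 and 21.7 in control and 6.6, 6.43 and 7.22 in mutant (log2 fold change -1.90). Its nearest protein-coding gene, *CG12780*, 8317 bases away on the same strand, also fell, from 13.7 ± 0.441 to 3.53 ± 0.289 (SD, n = 3, log2 fold change -1.96, adjusted p = 3.86e-05). *CR42836* had 49.4, 56.3 and 50.5 in control and 15.4, 14.7 and 14.9 in mutant (-1.80). *CR43905*, the most abundant of the 8, had 99.4, 119 and 111 in control and 33.8, 30.6 and 33.1 in mutant (-1.76). It lies within *jing*, the gene of a zinc-finger transcription factor, on the other strand, and *jing* was not called (log2 fold change -0.03). *CR44048*, 42 bases from *TotZ* of the Turandot stress-protein family, fell from 44.9 ± 5.33 to 14.1 ± 0.578 (SD, n = 3). *CR45203* had 30.9, 39.2 and 33.1 in control and 8.34, 12.8 and 14.4 in mutant (-1.54). It lies within *CG16779* on the same strand, which also fell, from 4.6 ± 0.896 to 2.07 ± 0.734 (SD, n = 3, log2 fold change -1.15, adjusted p = 0.0163). *CR45234* fell from 25 ± 0.721 to 8.91 ± 0.639 (SD, n = 3).

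**Figure D4:**
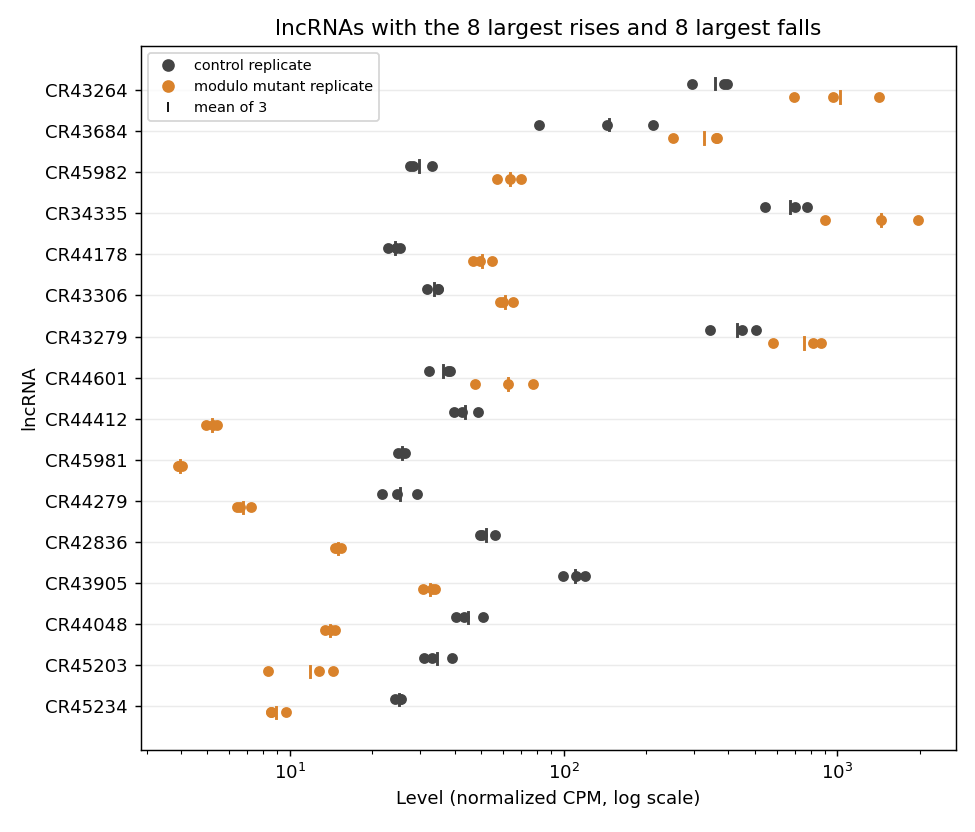
Normalized CPM on a log scale in each control (grey) and *modulo* mutant (orange) replicate of the lncRNAs with the 8 largest rises (top, from *CR43264* to *CR44601*) and the 8 largest falls (below, from *CR44412* to *CR45234*), with the mean of 3 as a vertical tick. Genotypes do not overlap, which the choice required, and the mutant replicates of the falls lie closer together than those of *CR43264* or *CR34335*.

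Of the 100, 3 carry a name other than a CR number. *Hsromega*, which is induced by heat shock and scaffolds nuclear bodies called omega speckles, had 605, 326 and 576 in control and 775, 604 and 325 in mutant. Replicates of 1 genotype differed by more than the genotypes did (log2 fold change 0.18, standard error 0.35, adjusted p = 0.734). *cherub*, known as a lncRNA that is passed to one daughter cell when larval neuroblasts divide, had 33.4, 20.6 and 23.1 in control and 30.1, 14.2 and 9.75 in mutant. It too varied more within than between genotypes (log2 fold change -0.51, standard error 0.41, adjusted p = 0.383). It was called lower with the replicate number as a block (-0.63, adjusted p = 0.024) and without mutant replicate 1 (-1.10, adjusted p = 0.0135). *Yu* had 27.7, 33.7 and 33.8 in control and 19, 21.7 and 25.1 in mutant, a fall of 0.53 on the log2 scale (adjusted p = 0.0212) that was lost without control replicate 2 or 3 or mutant replicate 2 (adjusted p up to 0.0815). *CR44376*, the last inside the list, had 20.2, 24 and 24.7 in control and 26.9, 31.2 and 34.1 in mutant. Its log2 fold change of 0.42 (adjusted p = 0.0378) lost its call with each replicate left out other than mutant replicate 1, where the adjusted p was between 0.0779 and 0.115, and under total-count (0.056) and upper-quartile (0.0626) scaling.

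By position, 62 of the 100 lncRNAs were intergenic, of which 11 rose and 26 fell. A further 19 lay in the span of a protein-coding gene on the opposite strand without exon overlap (8 rose, 6 fell), and 14 on the same strand (4 rose, 6 fell). Exons of a protein-coding gene were overlapped on the same strand by 3 and on the opposite strand by 2. The counting used strand, and for the 14 on the same strand, reads of an unspliced host transcript cannot be told apart from those of the lncRNA. The nearest protein-coding gene was tested for 94 of the 100. Of these neighbours, counted once for each lncRNA, 1 was called higher and 28 lower. For these counts and those by position above, the shares over all genes tested were 14.5% higher and 17.8% lower. Both the lncRNA and its neighbour were called for 19, with both lower in 12, opposite directions in 7 and both higher in 0. The log2 fold changes of the lncRNA and the neighbour had a Spearman correlation of 0.064 over the 94 pairs, which share their libraries and in part their neighbours. Of the tested nearest neighbours of lncRNAs that rose, 0 were called higher, where 1 of all 94 neighbours was.

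Transcript structure varied widely. Summed exon length ran from 214 to 21710 bases with a median of 765.5, and 47 of the 100 had a single annotated exon. Single-exon lncRNAs had 7 called higher and 24 lower, with a median log2 fold change of -0.38. Those with more exons had 16 and 16, with a median of 0.18. Outside the X chromosome the counts were 4 and 24 of 43 with 1 exon and 8 and 16 of 39 with more. Among all genes tested, single-exon genes had 522 called higher and 636 lower of 2874, with a median of 0.04. By length, lncRNAs under 500 bases had 7 called higher and 3 lower of 23, those from 500 to under 1000 bases 13 and 21 of 50, and longer ones 3 and 16 of 27. The median log2 fold changes of these classes were 0.30, -0.02 and -0.44. Over all genes tested they were 0.13, 0.08 and 0.00, so the whole libraries moved in the same order by a smaller amount. When a trend over gene length was removed from each library, an alternative chosen after seeing the data, the median of all genes moved to 0.11 and calls of all genes from 2044 higher and 2503 lower to 3349 and 2298. The 100 lncRNAs then had 32 called higher and 38 lower, with a median of -0.01, and the X-linked ones 14 and 0. Relative to the median of all genes, the X-linked median of 0.62 and that of the other lncRNAs, -0.32, then stayed on opposite sides. The part of the length trend in the changes of the lncRNAs was not tested.

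**Figure D5:**
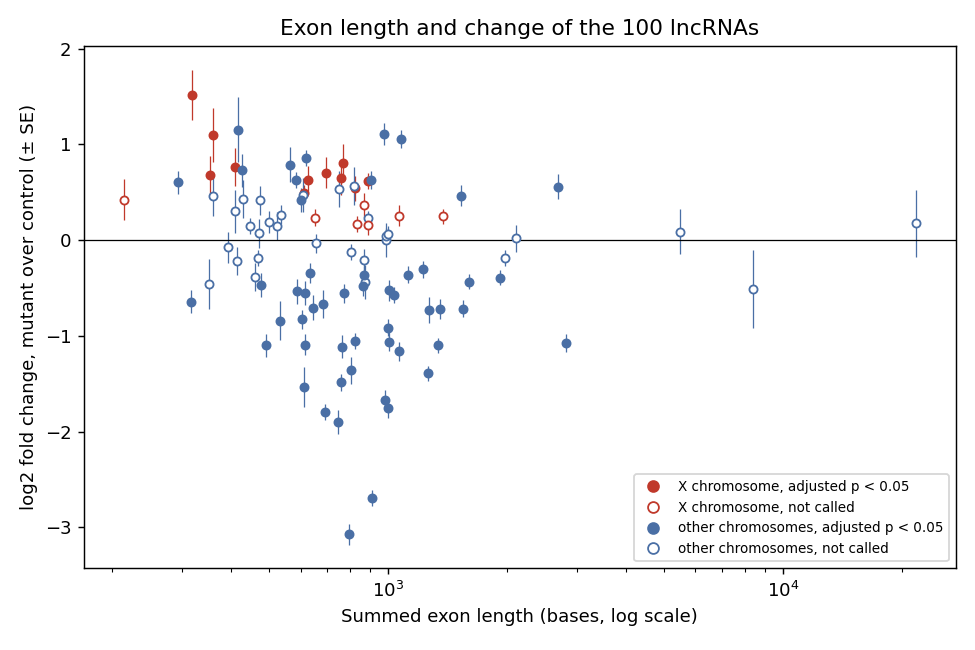
Log2 fold change with standard error of the 100 lncRNAs against summed exon length in bases on a log scale, with X-linked lncRNAs in red and filled points called at an adjusted p of 0.05. Values spread from -3.07 to 1.52 and those of lncRNAs above 1000 bases lie mostly below 0.

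Gene lists of the testis programme were counted in the same fit, where 14.5% of all genes tested were called higher and 17.8% lower. Of 14 matched meiotic arrest genes, which switch on the spermatocyte transcription programme, 4 were called higher (*achi*, *mip40*, *mia* and *tbrd-3*) and 1 lower (*topi*), with a median log2 fold change of 0.21. Of 14 tested cup and comet genes, which are transcribed after meiosis, 1 was called higher and 0 lower, with a median of -0.07. Of 11 genes of the RNA exosome and its helicase, which degrades noncoding nuclear RNA, 6 were called higher and 0 lower. Their median log2 fold change was 0.38, with the highest value, 0.65, for *Rrp40*, at a low 2.56 normalized CPM in control. *Rrp6*, the most abundant at 310 normalized CPM in control, had 0.06 and was not called, nor were *Dis3*, *Rrp4*, *Ski6* and *Mtr4*. The list summed to 430 to 502 CPM in control and 446 to 551 in mutant, which overlap. Markers of the testis germline were high in all replicates, at a sum of 9086 to 9993 CPM in control and 10430 to 11290 in mutant. Of these 8, only *Mst77F* was called, higher, from 2359 to 3494 normalized CPM (log2 fold change 0.57, adjusted p = 0.00427). The study also reports more *Mst77F* in total RNA of the mutant. Early germline markers summed to 114.8 to 144.6 CPM in control and 96.1 to 150 in mutant, with 0 of 4 called. Of these, *bam*, *vas* and *zpg* had log2 fold changes of 0.47, 0.43 and 0.41, while *bgcn*, the most abundant of the 4, had -0.12. Markers of hub and cyst cells summed to 133 to 146 CPM in control and 118 to 127 in mutant, with 2 of 6 called higher and 1 lower. Those called higher were *tj* and *Wnt4*, while *Fas3* fell from 37.7 to 29.9 normalized CPM. The lower sum and most of these calls thus went in different directions. Muscle sheath markers summed to 410 to 494 and 385 to 500 CPM, and accessory gland markers to 42.6 to 313 and 88.4 to 195 CPM, with none of 4 called in either. Fat body markers summed to 12.3 to 24.4 and 17.3 to 23.9 CPM, with 0 of 2 called. Ovary markers summed to under 0.1 CPM in control and 5.8 to 7.58 CPM in mutant, nearly all of it from *Cp7Fb*, a chorion gene on the X chromosome. The part of these shifts in the lncRNA changes was not tested.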

How the data were processed

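Per the labels, total RNA of adult testes was sequenced for 3 control and 3 *modulo* mutant biological replicates on 3 lanes each. The authors aligned read pairs to BDGP6/dm6 with STAR 2.7.1a and counted them by strand with featureCounts, per the submitters' processing notes and the study's methods. The deposited values are estimated counts, with reads of several positions divided among them. Lanes were summed and rounded. In R 4.3.3, edgeR 4.0.16 (TMM, quasi-likelihood, Benjamini-Hochberg) tested the 14059 genes that reached 10 counts in 3 or more samples, with no block. The test was first tested on simulated data with known changes. DESeq2 1.42.0, other scalings and filters, single lanes, left-out replicates and other choices of the 100 were alternatives. Deviations from the genotype mean correlated by 0.572, 0.591 and 0.17 between same-numbered samples, above the limit of 0.1 set for every pair. Between control and mutant samples of different number the correlations ran from -0.595 to 0.0884. Same-numbered samples were therefore treated as pairs in the blocked alternative, while the main fit and its adjusted p-values left the pairing out. Columns of the files left unused for lack of a sample numbered 0, and a table repeating the lane values was not used.

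Positions and exon lengths came from the annotation BDGP6.54, of the same release 6 assembly as the files, which held 17512 of the 17575 identifiers. Members and lists were chosen with earlier results of these data known. Named lncRNAs were the 10 highest in control, the 8 largest rises and falls among those called without overlap, those with a name other than a CR number, and those at the edge of the list. Their nearest or overlapping genes could be named too, and all others were chosen after their values were seen. Lists and markers not found by symbol were left out. Sequences of the lncRNAs and their promoters were not used here.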

Additional observations from a re-analysis of the deposited data

How the results depend on the processing

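With each replicate left out, the number of the 100 lncRNAs called higher ran from 9 to 32 around 23, the number called lower from 30 to 40 and the median log2 fold change from -0.14 to -0.05. Over all genes, the number called higher then ran from 919 to 2791 around 2044. DESeq2 called 32 of the 100 lncRNAs higher and 40 lower. With the replicate number as a block, 34 were called higher and 46 lower, and *CR43803* and *cherub* were the named lncRNAs whose call it changed. Choosing the 100 by mutant level gave 21 called lower and a median of 0.17. Choosing on 2 control replicates and measuring against the third alone gave medians of -0.10, -0.19 and -0.21 for control replicates 1, 2 and 3. Scaling to total counts shifted the median of all genes to -0.04. Of 513 values for the 27 named lncRNAs under 19 alternatives, 467 kept the call, 36 lost it, 10 gained it and 0 reversed it. The cause of these shifts was not tested.

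Counting error adds to replicate error for the lowest counts, and shared reads leave 7 lncRNAs uncertain. With 3 replicates per genotype, several rises, among them *CR34335* and *CR43684*, lost their call without a single library.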

Other observations

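Of the 100 most abundant lncRNAs of the mutant, 19 were not among the 100 of control, and 1 of them, *CR43297*, is X-linked. All 18 X-linked lncRNAs of the control list stayed on the mutant list, which follows in large part from their control ranks and positive log2 fold changes given above. The 19 were selected on mutant level, so their direction is in part set by the choice. Of these, 6 were called higher and 0 lower. *CR44519*, chosen here after its values were seen, had the largest difference, from 8.75 ± 1.3 normalized CPM in control to 23.6 ± 5.92 in mutant (SD, n = 3, log2 fold change 1.43), and moved from rank 287 in control into the list. *CR43881* went from 9.45 ± 0.949 to 21 ± 4.21 and *CR44921* from 8.08 ± 1.1 to 17.8 ± 2.32 (SD, n = 3). *CR43451* was the most even across replicates, with 13.4 ± 0.227 in control and 21.8 ± 0.58 in mutant (SD, n = 3). Another 19 left the list, which given their choice on control level required a lower rank in the mutant. As all 18 X-linked ones stayed, 0 of those that left were X-linked.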
